A study of Mus musculus with 6 samples.

Results

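Wnt genes were followed in 3T3-L1 cells, a mouse fibroblast line that can be driven to become fat cells, after treatment with flavonoids from the plant Smilax glabra. The genes were found in the table by their symbols. They comprise the Wnt ligands, the Frizzled receptors, the secreted Frizzled-related, Dickkopf and R-spondin families, and 14 named partners, from the co-receptors Lrp5 and Lrp6 to beta-catenin and the TCF/LEF factors. The table holds 55 of them among its 46095 genes. The flavonoids group was 3 samples of adipocytes given 0.125 μg/mL flavonoids, and the untreated group was 3 samples of adipocytes without them. Both groups were unmodified 3T3-L1 cells at 8 days after differentiation, and total RNA was sequenced. Whether the 3 samples of a group were cultured separately is not in the labels, and the p-values below therefore cover the variation among these 6 samples, which could be technical.

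Wnt proteins are secreted lipid-modified signals that bind a Frizzled receptor together with Lrp5 or Lrp6. Binding stalls a complex built on Axin that otherwise marks beta-catenin for destruction, and the beta-catenin that accumulates works with TCF/LEF factors on target genes. In preadipocytes of mice, this signal is a known brake on fat cell formation, and Wnt10b is its best-known ligand in 3T3-L1 cells.

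Fragments were solved from the steps of the deposited FPKM values (fragments scaled to gene length and library size). Over the solved genes they summed to between 24621209 and 26355291 per library in the flavonoids group and between 21951496 and 25083047 in the untreated group. Within-group correlations of log2 values across genes were 0.987 to 0.995 for flavonoids and 0.967 to 0.989 for untreated. Between the groups they were 0.955 to 0.981, which overlaps the untreated range. The adipocyte label was checked against 12 markers of mature fat cells, of which 5 averaged at least 1 FPKM. Lpl stood at 144 to 306 FPKM over the 6 samples, and Fabp4, a fatty acid carrier, at 149 to 251 FPKM. Pparg stood at 9.32 to 12.3 FPKM, Lipe at 7.55 to 11.5 FPKM and Cebpa at 5.55 to 7.67 FPKM. Adipoq, which encodes adiponectin, stood at 0.0321 to 0.735 FPKM, and Plin1, the coat protein of lipid droplets, at 0.0902 to 0.362 FPKM. Cd36, Slc2a4, Cidec, Retn and Adig also stayed below 1 FPKM in all 6 samples. By contrast, 9 of 10 preadipocyte and fibroblast markers averaged at least 1 FPKM, with Col3a1 at 1000 to 1350 FPKM. Their summed level was 2470 to 2630 FPKM in the flavonoids samples, against 3380 to 3810 FPKM in the untreated samples. The largest parts of that sum were Col3a1, Col1a1 and Dcn, with means of 1170, 779 and 493 FPKM over the 6 samples. Of the 9 tested, 3 fell, where 5.13% of all tested genes did. Summed levels of the 12 fat cell markers were 357 to 527 FPKM with flavonoids and 394 to 422 FPKM without, and none of the 5 tested markers of that list passed the threshold defined below. Their part in the results below was not tested. Among markers of other cell types, Acta2 (smooth muscle) stood at 258 to 369 FPKM and Sox9 (chondrocytes) at 37.8 to 66.3 FPKM over the 6 samples. These were the highest of their lists. Of the other smooth muscle markers, Tagln stood at 10.3 to 23.9 FPKM and Des at 4.9 to 8.15 FPKM. Myh11 and Cnn1 reached at most 0.0965 and 0.0683 FPKM. Of the other chondrocyte markers, Col2a1, Col9a1 and Matn3 reached at most 0.0592, 0.0116 and 0.0919 FPKM, and Acan was listed at 0 throughout. The 5 smooth muscle markers, mostly Acta2, summed to 330 to 384 FPKM with flavonoids and 276 to 397 FPKM without. The 5 chondrocyte markers, nearly all Sox9, summed to 37.8 to 49.4 FPKM with flavonoids and 47.0 to 66.5 FPKM without. Of the osteoblast markers, Runx2 stood at 2.79 to 5.03 FPKM and Alpl at 0.611 to 1.52 FPKM. Bglap and Sp7 reached at most 0.178 and 0.0852 FPKM, and Ibsp was listed at 0. The 5 osteoblast markers summed to 3.57 to 4.32 FPKM with flavonoids and 3.69 to 6.72 FPKM without. Ptprc (blood cells), Cdh5, Kdr and Tie1 (vessel lining) and Epcam, Krt18 and Krt14 (epithelium) were listed at 0 in all 6 samples. Of the other markers in those lists, Cd68 stood at 1.2 to 2.73 FPKM and Csf1r at 0.633 to 0.887 FPKM. Krt8 stood at 0.111 to 0.752 FPKM and Tek at 0.109 to 0.249 FPKM. Pecam1, Adgre1, Itgam and Cdh1 stayed below these. Sums with and without flavonoids were 1.92 to 2.62 and 1.87 to 3.5 FPKM for 5 macrophage markers. For 5 endothelial markers they were 0.249 to 0.281 and 0.121 to 0.256 FPKM. For 5 epithelial markers they were 0.112 to 0.155 and 0.45 to 0.762 FPKM.

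The samples of the untreated group also differed along gene length. The median log2 ratio of untreated replicate 3 to untreated replicate 1 was −0.70 for 990 genes with an implied length under 1000 bases and 0.93 for 267 genes over 8000 bases. Between flavonoids replicates 3 and 1 the same medians were −0.10 and −0.14. Ratios of single Wnt genes did not all follow their length class: Fzd4, with an implied length of 3708 bases, was at 1.16 between these untreated samples, and the longer Fzd1, with 4405 bases, at 0.11.

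Differences were tested with limma on log2(FPKM + 1) over the 11464 genes averaging at least 1 FPKM, and a gene counts as changed at a Benjamini-Hochberg adjusted p under 0.05 over all of them. Of the 55 Wnt genes, 21 were tested. The other 34 averaged below 1 FPKM, and 14 of these were listed at 0 in all 6 samples. With flavonoids, 4 Wnt genes fell and 1 rose. Wnt6 and Wnt4 (ligands), Sfrp2 (a secreted antagonist) and Rspo1 (a secreted enhancer) fell, and Porcn (the enzyme that lipidates Wnt proteins) rose. The 4 that fell are 19% of the tested Wnt genes, against a background of 5.13% of all tested genes, and the 1 that rose is 4.76%, against a background of 4.86%. The fitted change was negative for 15 of the 21, with a median of −0.22 on the log2 scale, and for 6032 of all 11464 genes, with a median of −0.02. With flavonoids replicate 1 or untreated replicate 2 left out, 2 Wnt genes fell and 0 rose, and with flavonoids replicate 2 left out, 3 fell and 0 rose. With untreated replicate 1 left out 7 fell, Lrp6, Fzd5 and Tcf7l1 among them. In a bulk sample, fewer cells of a type and less RNA per cell cannot be told apart.

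**Figure D1:**
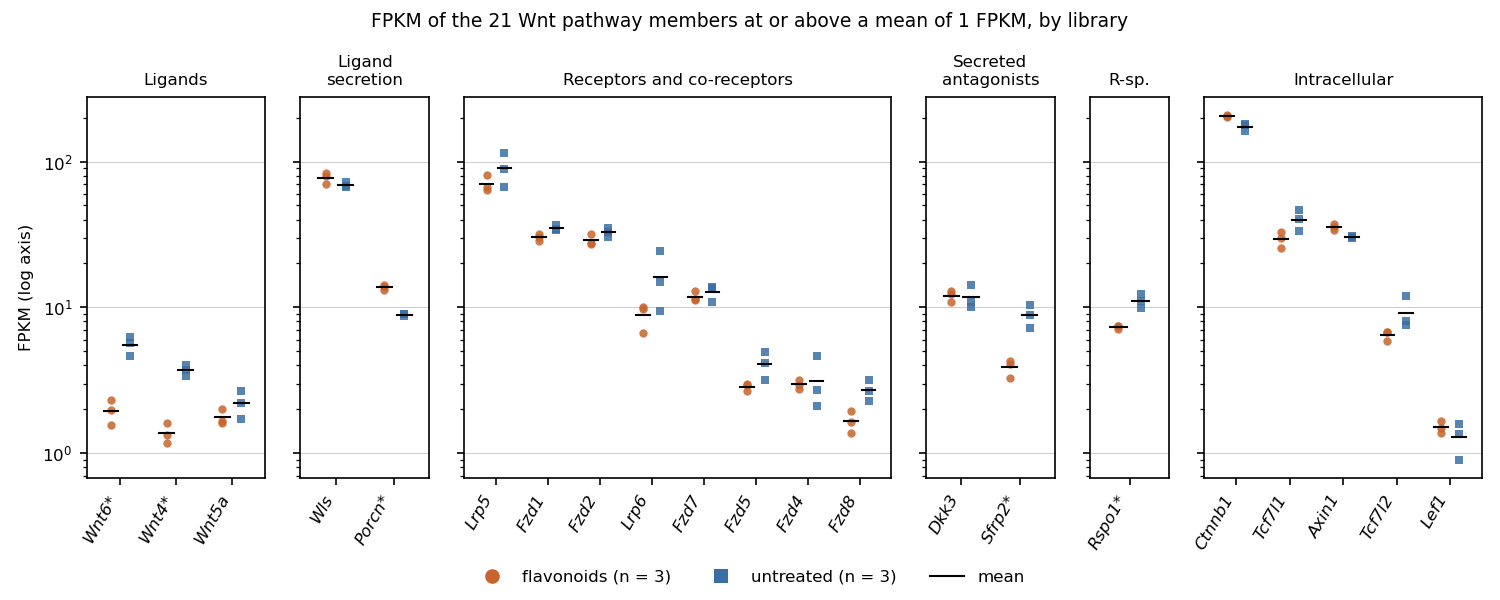
FPKM of the tested Wnt genes in each sample on a log axis, with the 3 flavonoids samples to the left of the 3 untreated samples for each gene, a line at each mean and an asterisk at called genes. The points of Wnt6, Wnt4, Sfrp2 and Rspo1 with flavonoids lie below all untreated points, those of Porcn lie above, and the untreated points of Lrp6 spread the widest among the receptors.

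Start-site regions are shown for the called genes that had an entry in the RefSeq promoter table, to set the letters upstream of the genes beside their change. Of the 55 genes, 37 matched by symbol, and of the 5 called genes 4 did. The sequences are from RefSeq on GRCm38.p6, read 5′ to 3′ on the plus strand, which is the strand of all 4 genes. The table gives 250 bases upstream of each start, and the last 146 bases for Wnt4 are left out because they lie inside the gene as GENCODE M21 places it. For Wnt6 the regions shown cover chr1:74771642-74771891, for Wnt4 chr4:137277385-137277488, for Sfrp2 chr3:83766071-83766320 and for Rspo1 chr4:124986180-124986429. Capitals mark the core of the hypoxia response element, ACGTG or GCGTG on either strand. In Wnt6 they mark a longer match to the WT1/EGR motif, GCGTGGGNG or GCGGGGGCG on either strand, which contains that core.
Wnt6: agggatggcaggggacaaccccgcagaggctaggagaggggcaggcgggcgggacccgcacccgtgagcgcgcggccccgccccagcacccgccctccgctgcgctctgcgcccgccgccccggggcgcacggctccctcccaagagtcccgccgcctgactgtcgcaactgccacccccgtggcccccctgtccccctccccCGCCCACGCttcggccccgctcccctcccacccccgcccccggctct
Wnt4: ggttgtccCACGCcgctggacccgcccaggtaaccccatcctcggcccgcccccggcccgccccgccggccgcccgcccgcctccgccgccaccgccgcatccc
Sfrp2: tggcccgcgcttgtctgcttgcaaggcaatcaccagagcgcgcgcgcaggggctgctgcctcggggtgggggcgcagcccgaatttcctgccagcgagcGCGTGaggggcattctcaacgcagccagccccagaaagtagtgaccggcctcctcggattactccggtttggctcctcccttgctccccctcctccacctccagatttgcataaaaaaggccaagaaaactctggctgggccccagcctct
Rspo1: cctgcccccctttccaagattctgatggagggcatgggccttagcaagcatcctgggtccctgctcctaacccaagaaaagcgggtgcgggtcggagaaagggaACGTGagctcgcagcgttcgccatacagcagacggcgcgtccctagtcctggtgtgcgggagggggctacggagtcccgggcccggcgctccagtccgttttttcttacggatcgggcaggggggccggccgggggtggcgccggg

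All 4 regions held 1 hypoxia core, as 21 of the 37 matched Wnt genes and 38.6% of the 32851 promoters of the table do in their 250 upstream bases. The Wnt4 region has 104 bases, so its counts are not on the same length as these shares. Each of the 37 Wnt genes counts if any of its promoters matches, while the percentages are over single promoters, so these measures differ. None of the 4 held the TCF/LEF motif CTTTGAT or CTTTGAA, which 7.48% of all promoters and 3 of the 37 Wnt genes hold. None held the ATF4 motif TGATGNAA (3.45% of all promoters), CCAAT (33.8%) or TATAAA (12.4%). The WT1/EGR motif, held by 4.13% of all promoters and 10 of the 37 Wnt genes, matched in the Wnt6 region and not in those of Wnt4, Sfrp2 or Rspo1. The GC box GGGCGG is held by 32.7% of all promoters and 30 of the 37 Wnt genes. It matched 5 times in the Wnt4 region and 6 times in the Wnt6 region, and did not match in those of Sfrp2 or Rspo1. These regions were 83.7% G or C for Wnt4, 79.6% for Wnt6, 66.8% for Rspo1 and 63.6% for Sfrp2, against a median of 52.4% over all promoters. A match describes letters in the window and is not a shown binding site.

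Among the 19 ligand genes, 3 averaged at least 1 FPKM. Wnt6, a ligand that holds back fat cell formation in mouse precursors, lies on chromosome 1 at 74771892 to 74785322 (GRCm38, GENCODE M21). Its level was 1.57, 1.98 and 2.31 FPKM in flavonoids replicates 1, 2 and 3, against 6.29, 5.69 and 4.65 FPKM in untreated replicates 1, 2 and 3. Every flavonoids sample was below every untreated sample. Mean levels were 1.95 ± 0.368 FPKM with flavonoids and 5.54 ± 0.830 FPKM without (SD, n = 3 each), a 2.84-fold lower level. On the log2(FPKM + 1) scale, which understates the change of low genes, the difference was −1.15 (SE 0.16, adjusted p = 0.00577 by limma). These values rest on 326 fragments in the flavonoids group and 852 in the untreated group. An antisense gene, Gm29539, overlaps Wnt6 and averaged 0.0361 FPKM, and whether the counting used strand is not given in the sources used here.

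Wnt4, a ligand needed for kidney tubule and female reproductive tract formation in mice, lies on chromosome 4 at 137277489 to 137299726. Its level was 1.17, 1.34 and 1.61 FPKM in flavonoids replicates 1 to 3, against 4.0, 3.40 and 3.69 FPKM in untreated replicates 1 to 3. The groups were again fully apart, with 401 fragments in the flavonoids group and 998 in the untreated group. The mean was 1.38 ± 0.224 FPKM with flavonoids and 3.70 ± 0.301 FPKM without (SD, n = 3 each), 2.69-fold lower, with a log2 difference of −0.99 (SE 0.14, adjusted p = 0.00591 by limma). Wnt6 and Wnt4 stayed past the threshold in each of the 16 other settings that tested them.

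Wnt5a, the prototype of ligands that act without beta-catenin, had 1.62, 2.0 and 1.65 FPKM with flavonoids, against 1.71, 2.20 and 2.66 FPKM in untreated samples. The groups overlapped, and the log2 difference of −0.20 (95% interval −0.57 to 0.16, adjusted p = 0.456 by limma) missed the threshold. The order of the 3 ligands therefore differed between groups. With flavonoids the means of Wnt6 (1.95 FPKM), Wnt5a (1.76 FPKM) and Wnt4 (1.38 FPKM) lay close together, and the range of Wnt4 ended at 1.61 FPKM, just under that of Wnt5a. In untreated cells Wnt6 (5.54 FPKM) stood above Wnt4 (3.70 FPKM) and Wnt4 above Wnt5a (2.19 FPKM), with no overlap between neighbours.

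The summed level of all 19 ligand genes was 5.70, 6.76 and 6.84 FPKM in flavonoids replicates 1 to 3, against 13.9, 13.2 and 13.2 FPKM in untreated replicates 1 to 3. Wnt6 made up 30.2 ± 3.16% of that sum with flavonoids and 41.3 ± 5.34% without (SD, n = 3 each). Wnt4 made up 21.3 ± 1.99% with flavonoids and 27.5 ± 1.56% without. Wnt5a, whose own level did not pass the test, made up 27.4 ± 2.90% of the smaller sum with flavonoids and 16.4 ± 3.93% without.

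**Figure D2:**
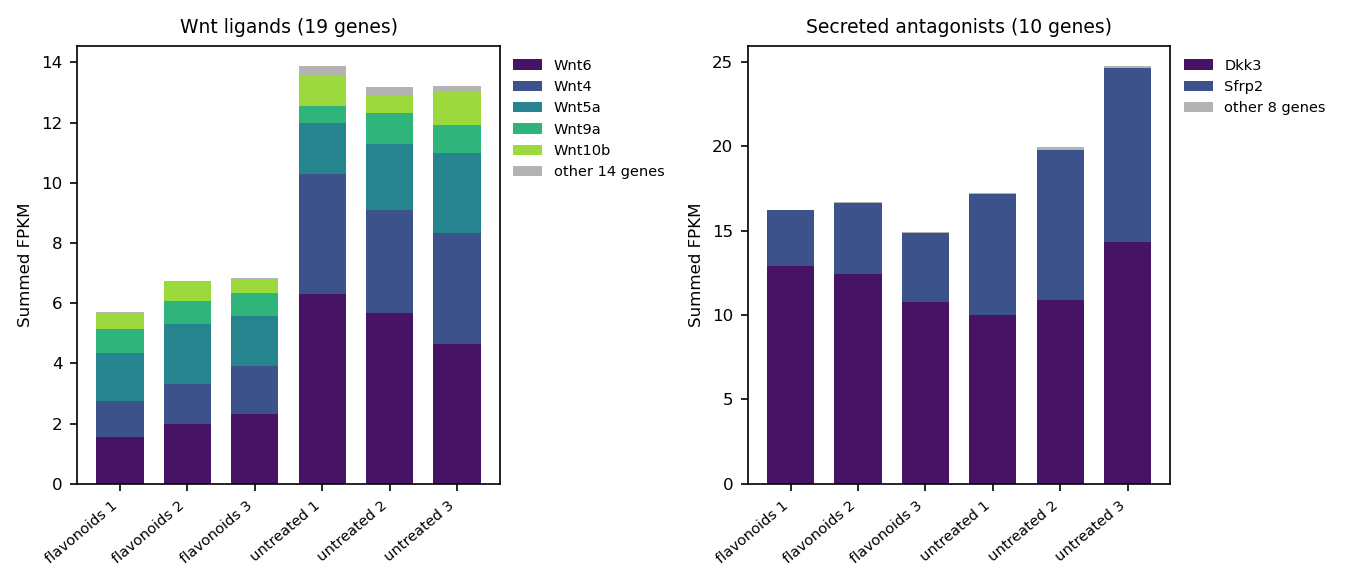
Summed FPKM per sample of the 19 ligand genes (left panel) and the 10 secreted antagonist genes (right panel), as stacked bars with 1 colour a gene, flavonoids samples to the left of untreated samples. The ligand sums lie between 5.70 and 6.84 FPKM with flavonoids and between 13.2 and 13.9 FPKM without, and the antagonist bars differ mainly in the Sfrp2 segment.

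The other 16 ligand genes averaged below 1 FPKM, and 8 of these were above 0 in at least 1 sample. Wnt10b, the known brake on fat cell formation, had 0.549, 0.654 and 0.449 FPKM with flavonoids (42, 53 and 34 fragments), against 1.01, 0.616 and 1.13 FPKM in untreated samples (68, 44 and 87 fragments). Its groups overlapped, since flavonoids replicate 2 lay above untreated replicate 2, and in a fit of all genes with no filter the adjusted p was 0.294 by limma. Wnt9a had 66, 67 and 64 fragments with flavonoids and 41, 81 and 77 in untreated samples, which also overlapped. Wnt11, a ligand known for guiding cell movements, had 0, 0 and 2 fragments with flavonoids and 11, 10 and 9 in untreated samples. Without the filter it passed the threshold as lower, with a log2 difference of −0.18 (SE 0.02, adjusted p = 0.0256 by limma), and 1.46% of the 22235 genes of that fit were lower. A pseudocount of 1 compresses a gene this low, and its mean of 0.0089 FPKM with flavonoids and 0.141 FPKM without rests on 2 and 30 fragments in all.

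Wnt7b had 1 to 2 fragments per flavonoids sample and 2 to 6 per untreated sample, and Wnt2b had 0 to 1 with flavonoids and 0 to 7 without. Wnt10a was above 0 in flavonoids replicate 2 alone, at 0.0192 FPKM, and Wnt1 and Wnt2 in untreated replicate 3 alone, at 0.0167 and 0.00723 FPKM. Wnt3, Wnt3a, Wnt5b, Wnt7a, Wnt8a, Wnt8b, Wnt9b and Wnt16 were listed at 0 in all 6 samples. Wnt genes often lie in neighbouring pairs, and in 3 of the 4 pairs examined 1 gene was near or at 0 and the other above it, while Wnt9b and Wnt3 were both listed at 0. Wnt6 averaged 3.75 FPKM over the 6 samples and Wnt10a, 6193 bases away, 0.0032 FPKM. Wnt10b averaged 0.734 FPKM and Wnt1, 11706 bases away, 0.00278 FPKM. Wnt9a averaged 0.794 FPKM, while Wnt3a, 16175 bases away, was listed at 0.

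**Figure D3:**
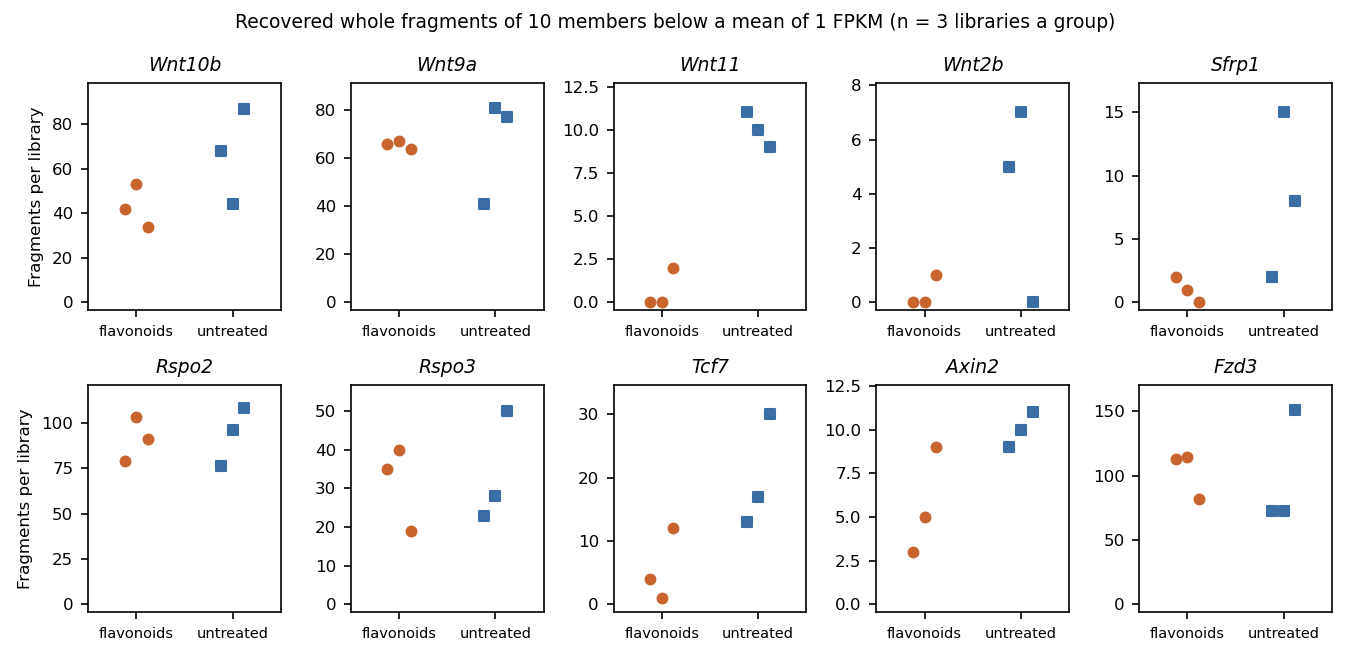
Whole fragments per sample for 10 of the Wnt genes below a mean of 1 FPKM, flavonoids samples to the left of untreated samples. Wnt11 shows 0, 0 and 2 fragments with flavonoids and 11, 10 and 9 without, and Wnt10b overlaps between the groups.

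Both genes of the secretion route were tested. Porcn encodes the acyltransferase of the endoplasmic reticulum that adds the lipid Wnt proteins need, and lies on chromosome X at 8193848 to 8206525. Its level was 13.8, 13.2 and 14.2 FPKM with flavonoids, against 8.69, 9.05 and 8.97 FPKM in untreated samples. The samples of each group lay close together and the groups were far apart. The mean was 13.7 ± 0.528 FPKM with flavonoids and 8.90 ± 0.192 FPKM without (SD, n = 3 each), 1.54-fold higher, with a log2 difference of 0.57 (SE 0.11, adjusted p = 0.0159 by limma). The call was lost without flavonoids replicate 1 (adjusted p = 0.0853 by limma), flavonoids replicate 2 (0.0669) or untreated replicate 2 (0.10), while the difference stayed between 0.55 and 0.60.

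Wls encodes the carrier that takes lipidated Wnt proteins to the cell surface, and was among the most abundant Wnt genes. It had 83.6, 79.2 and 69.8 FPKM with flavonoids, against 67.3, 72.4 and 67.6 FPKM in untreated samples. Flavonoids replicate 3 fell inside the untreated range, and the log2 difference of 0.16 (95% interval −0.10 to 0.42, adjusted p = 0.412 by limma) missed the threshold.

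Of the 13 receptor genes, 8 were tested and none passed the threshold, although all 8 fitted changes were negative, with a median of −0.28 on the log2 scale, and of these Fzd4 turned positive with the length trend removed (0.01), median-ratio scaling (0.02) and voom (0.03). Lrp5, a co-receptor best known for its role in bone mass, had 66.6, 63.4 and 80.4 FPKM with flavonoids, against 67.5, 89.4 and 115 FPKM in untreated samples. Lrp6, its close relative, had 9.99, 9.80 and 6.62 FPKM with flavonoids, against 9.42, 15 and 24.4 FPKM in untreated samples. In both genes untreated replicate 1 lay within the flavonoids range and untreated replicate 3 was the highest of all 6 samples.

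The log2 difference of Lrp6 was −0.74 (95% interval −1.41 to −0.07, adjusted p = 0.150 by limma) and that of Lrp5 −0.34 (95% interval −0.78 to 0.10, adjusted p = 0.297). Lrp6 has the longest implied gene length of the tested Wnt genes, 9426 bases. Its log2 ratio of untreated replicate 3 to untreated replicate 1 was 1.37, beside 0.93 for genes over 8000 bases. With a length trend removed from each library, Lrp6 passed the threshold at a log2 difference of −0.58 (adjusted p = 0.0224), and without untreated replicate 1 it passed at −1.06 (adjusted p = 0.0201).

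**Figure D4:**
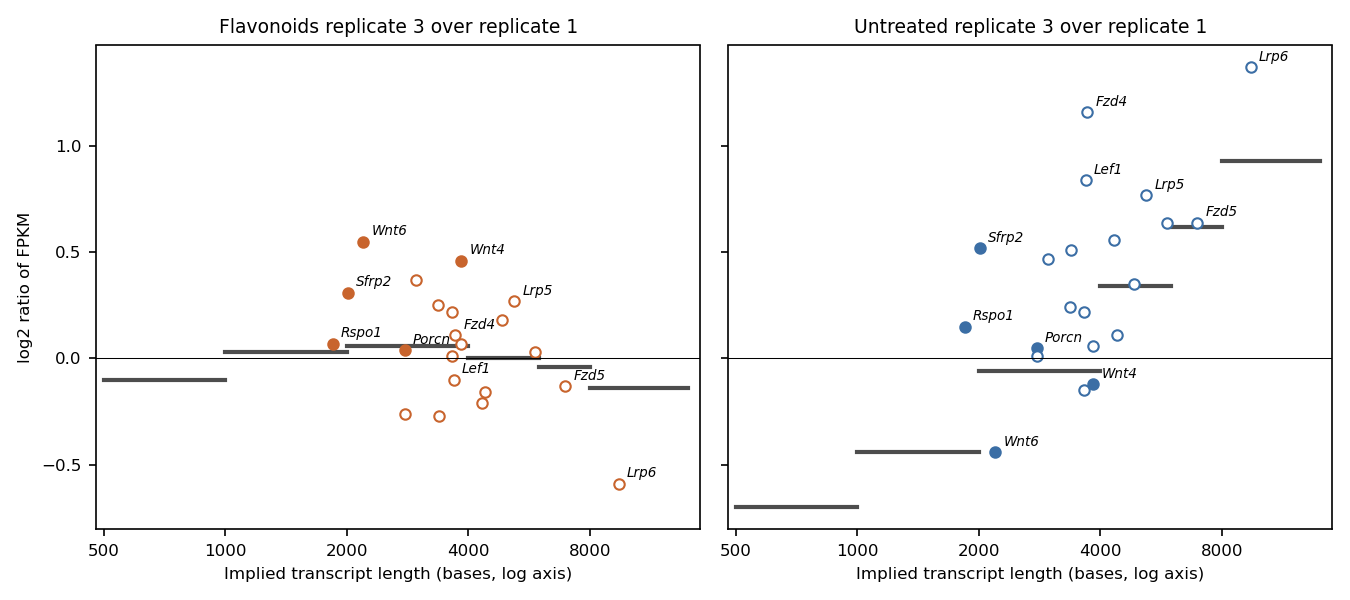
Log2 ratio of replicate 3 to replicate 1 against implied gene length in bases on a log axis, for the flavonoids group on the left and the untreated group on the right, with thick lines at the median of each length class, tested Wnt genes as points and called genes filled. The untreated medians climb from −0.70 under 1000 bases to 0.93 over 8000 bases, and Lrp6 lies at 1.37, while the flavonoids medians stay between −0.14 and 0.06.

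Frizzled proteins are the receptors that bind Wnt ligands. The most abundant were Fzd1 and Fzd2, close relatives of Fzd7. Fzd1 had 31.8, 30.2 and 28.5 FPKM with flavonoids, against 34.2, 34.5 and 37.0 FPKM in untreated samples. Its groups did not overlap, and the log2 difference of −0.22 (95% interval −0.46 to 0.02, adjusted p = 0.230 by limma) missed the threshold. Fzd2 had 27.4, 27.7 and 32.0 FPKM with flavonoids, against 30.3, 32.9 and 35.3 FPKM in untreated samples, and Fzd7 had 11.4, 11.3 and 12.9 FPKM with flavonoids, against 10.8, 13.5 and 13.8 FPKM in untreated samples. Both overlapped between groups (adjusted p = 0.385 and 0.710 by limma).

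Fzd5 and Fzd8 form another pair of relatives. Fzd8 had 1.37, 1.94 and 1.63 FPKM with flavonoids, against 2.68, 2.27 and 3.16 FPKM in untreated samples, without overlap. Its log2 difference of −0.48 (95% interval −0.84 to −0.13, adjusted p = 0.0875 by limma) was past the threshold only with the length trend removed, among the settings tried (−0.46, adjusted p = 0.0434). Fzd5 had 2.93, 2.96 and 2.68 FPKM with flavonoids, against 3.19, 4.12 and 4.96 FPKM in untreated samples, also without overlap (−0.39, 95% interval −0.75 to −0.03, adjusted p = 0.158). Fzd4, which also binds the non-Wnt ligand Norrin, had 2.94, 2.77 and 3.16 FPKM with flavonoids, against 2.09, 2.69 and 4.65 FPKM in untreated samples. The flavonoids values of Fzd4 lay inside the untreated range, with a log2 difference of −0.02 (95% interval −0.51 to 0.47).

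The makeup of the Frizzled sum was close in the groups. Fzd1 supplied 38.3% of it with flavonoids and 38.8% without, Fzd2 36.8% and 36.1%, and Fzd7 15% and 13.9%, in the same order of groups. The sum itself averaged 78.9 ± 1.94 FPKM with flavonoids and 91.1 ± 7.94 FPKM without (SD, n = 3 each). Below 1 FPKM were Fzd3, with 113, 115 and 82 fragments with flavonoids and 73, 73 and 151 without, and Fzd9, with 1 to 8 with flavonoids and 2 to 5 without. Ror2, a receptor tyrosine kinase for Wnt5a, had 14, 16 and 7 fragments with flavonoids and 5, 10 and 12 without. Fzd6 had 0 in each flavonoids sample and 1, 1 and 0 fragments in untreated samples, and Fzd10 was listed at 0 throughout.

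Of the 10 antagonist genes, 2 averaged at least 1 FPKM. Sfrp2 encodes a secreted protein with a Frizzled-like domain that binds Wnt ligands outside the cell, and lies on chromosome 3 at 83766321 to 83774316. Its level was 3.29, 4.26 and 4.07 FPKM with flavonoids, against 7.19, 8.89 and 10.3 FPKM in untreated samples. Every flavonoids sample was below every untreated sample, with 593 fragments in the flavonoids group and 1257 in the untreated group. The mean was 3.88 ± 0.511 FPKM with flavonoids and 8.81 ± 1.58 FPKM without (SD, n = 3 each), 2.27-fold lower, with a log2 difference of −1.0 (SE 0.16, adjusted p = 0.00857 by limma). The call was lost without flavonoids replicate 1 (adjusted p = 0.0552 by limma) or untreated replicate 2 (0.0647), with a difference of −1.12 to −0.89 when any 1 sample was left out. An antisense gene, Gm26771, overlaps Sfrp2 in the annotation and has no row in the table. The summed level of the preadipocyte and fibroblast markers was lower with flavonoids too, at the values given above. Of the 9 tested, 3 fell, where 5.13% of all tested genes did. Whether this bears on Sfrp2 was not tested.

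Dkk3, a divergent Dickkopf, had 12.9, 12.4 and 10.8 FPKM with flavonoids, against 10, 10.9 and 14.3 FPKM in untreated samples. The groups overlapped and the log2 difference was 0.04 (95% interval −0.30 to 0.39, adjusted p = 0.888 by limma), and it was −0.01 after TPM scaling. The share of Dkk3 in the summed antagonist level was 75.4 ± 3.74% with flavonoids and 56.8 ± 1.87% without (SD, n = 3 each), while that of Sfrp2 was 24.4 ± 3.71% with flavonoids and 42.7 ± 1.56% without. Sfrp1, a relative of Sfrp2, had 2, 1 and 0 fragments with flavonoids and 2, 15 and 8 in untreated samples (adjusted p = 0.309 by limma with no filter). Frzb, another secreted Frizzled-like protein, had 0 to 2 fragments with flavonoids and 1 to 2 without. Dkk1 and Wif1 were above 0 in untreated replicate 3 alone, at 0.0176 and 0.0177 FPKM, and Dkk2, Dkk4, Sfrp4 and Sfrp5 were listed at 0 throughout.

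R-spondins are secreted enhancers that keep Frizzled receptors at the cell surface by binding Lgr receptors and the ubiquitin ligases Rnf43 and Znrf3. Rspo1, on chromosome 4 at 124986430 to 125009099, was the sole gene of the 4 to average at least 1 FPKM. It had 7.12, 7.42 and 7.50 FPKM with flavonoids, against 9.95, 12.3 and 11.0 FPKM in untreated samples. The flavonoids values were tight and all below the untreated values, with 1029 fragments in the flavonoids group and 1444 in the untreated group. The mean was 7.35 ± 0.199 FPKM with flavonoids and 11.1 ± 1.19 FPKM without (SD, n = 3 each), 1.51-fold lower, with a log2 difference of −0.53 (SE 0.12, adjusted p = 0.0308 by limma). This was the least stable of the 5 calls. It was lost in 8 of 17 other settings, among them TPM scaling (adjusted p = 0.0529 by limma), no filter (0.0569), voom (0.0605) and the fits without flavonoids replicate 1 (0.133), 2 (0.111) or 3 (0.0682) or without untreated replicate 2 (0.182). The annotation also holds an antisense gene over Rspo1, Gm12930, with no row in the table.

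Rspo2 had 79, 103 and 91 fragments with flavonoids and 76, 96 and 108 without, and Rspo3 had 35, 40 and 19 with flavonoids and 23, 28 and 50 without, so both overlapped between groups. Rspo4 was listed at 0. On the receptor side, Lgr4, which binds R-spondins, averaged 2.33 ± 0.623 FPKM with flavonoids and 3.39 ± 0.816 FPKM without (SD, n = 3 each), with a log2 difference of −0.40 (95% interval −0.85 to 0.04).

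Inside the cell, 5 of 7 genes were tested and none passed the threshold. Ctnnb1 encodes beta-catenin and was the most abundant of the Wnt genes per length. It had 204, 210 and 205 FPKM with flavonoids, against 179, 182 and 161 FPKM in untreated samples. All flavonoids values were above all untreated values, with a log2 difference of 0.25 (95% interval −0.01 to 0.51, adjusted p = 0.198 by limma). With the length trend removed it passed the threshold, at 0.28 (adjusted p = 0.0459). Axin1, the scaffold of the destruction complex, had 35.7, 34.1 and 37.4 FPKM with flavonoids, against 29.8, 30.6 and 31.0 FPKM in untreated samples. Its groups did not overlap either, and its log2 difference of 0.22 (95% interval −0.01 to 0.46, adjusted p = 0.206) missed the threshold.

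The TCF/LEF factors bind DNA and recruit beta-catenin. Tcf7l1, which mostly represses, had 25.4, 29.7 and 32.7 FPKM with flavonoids, against 33.4, 40.1 and 46.4 FPKM in untreated samples. Variants in the human counterpart of Tcf7l2 are linked to type 2 diabetes. Tcf7l2 had 6.76, 6.75 and 5.85 FPKM with flavonoids, against 8.04, 7.52 and 11.9 FPKM in untreated samples. Neither overlapped between groups, and neither passed (−0.43, adjusted p = 0.108, and −0.42, adjusted p = 0.158, by limma). Lef1 had 1.48, 1.65 and 1.38 FPKM with flavonoids, against 0.891, 1.36 and 1.59 FPKM in untreated samples, with overlap (0.14, adjusted p = 0.611). Tcf7 had 4, 1 and 12 fragments with flavonoids and 13, 17 and 30 without, a difference that missed the threshold with no filter (adjusted p = 0.159 by limma). Axin2, a relative of Axin1 that is itself a widely used Wnt target, had 3, 5 and 9 fragments with flavonoids and 9, 10 and 11 without. In FPKM, scaled to library size, Axin2 had 0.027, 0.0425 and 0.0819 with flavonoids and 0.0918, 0.0964 and 0.0981 without, with no overlap. It missed the threshold with no filter (adjusted p = 0.247 by limma).

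Of the 21 tested Wnt genes, 9 had all flavonoids values below all untreated values and 3 had them all above. Groups did not overlap in either direction for 34.3% of all 11464 tested genes.

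**Figure D5:**
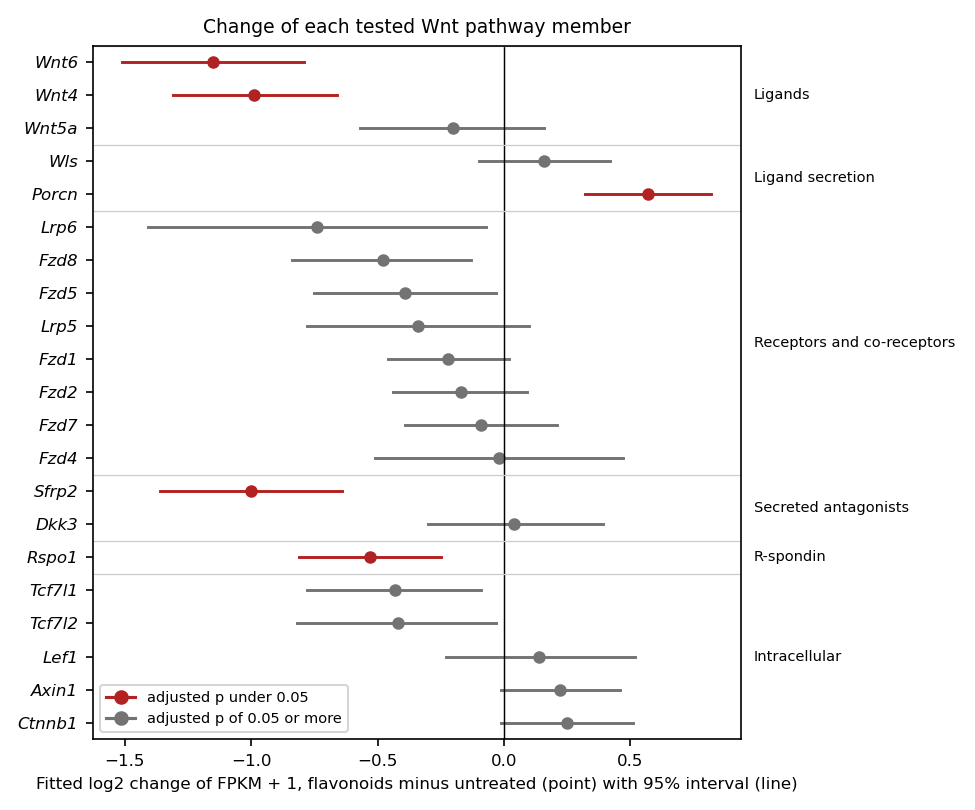
Fitted log2 difference (flavonoids minus untreated) of each tested Wnt gene with its 95% interval, grouped by role. Wnt6, Wnt4, Sfrp2 and Rspo1 fell and Porcn rose at an adjusted p under 0.05, and all 8 receptor genes have negative estimates of which none passed, with Fzd4 at −0.02 changing sign under other scalings.

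Beyond these genes, 64 further genes of the pathway were listed, of which 63 have a row in the table and 44 were tested. None rose and 3 fell, where 4.86% of all tested genes rose and 5.13% fell, with a median change of −0.12. Ryk, an atypical receptor tyrosine kinase that binds Wnt ligands, had 58.5, 59.5 and 55.2 FPKM with flavonoids, against 89.0, 86.8 and 77.8 FPKM in untreated samples. Its groups were well apart, with a log2 difference of −0.54 (SE 0.11, adjusted p = 0.0188 by limma). Tle2, a Groucho co-repressor that partners TCF factors, had 7.32, 6.09 and 7.61 FPKM with flavonoids, against 10.4, 13.1 and 19.6 FPKM in untreated samples (−0.90, SE 0.21, adjusted p = 0.0304). Nfatc4, a transcription factor activated through calcium and calcineurin, had 16.4, 17.5 and 20 FPKM with flavonoids, against 24.0, 24.8 and 24.7 FPKM in untreated samples (−0.43, SE 0.12, adjusted p = 0.0490). The Nfatc4 call was lost in several settings, among them TPM scaling (adjusted p = 0.0608 by limma), median-ratio scaling (0.0954) and voom (0.092). It was kept in others, among them the length trend removed (0.0329) and a minimum of 5 FPKM (0.0422). Ryk, Tle2 and Nfatc4 all had non-overlapping groups. Of the list, 0 fell without flavonoids replicate 1, flavonoids replicate 2 or untreated replicate 2, and 1 without flavonoids replicate 3. Without untreated replicate 3, 2 fell, and without untreated replicate 1, 6 did.

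No gene of the core relay passed the threshold. Dvl1, Dvl2 and Dvl3 relay the signal from Frizzled, and their log2 differences were 0.01 (95% interval −0.24 to 0.26), 0.05 (−0.32 to 0.42) and −0.00 (−0.39 to 0.38). Gsk3b, a kinase of the destruction complex, averaged 12.6 ± 2.03 FPKM with flavonoids and 13 ± 4.02 FPKM without (SD, n = 3 each). Apc, a scaffold protein of that complex, averaged 2.09 ± 0.680 FPKM with flavonoids and 2.48 ± 1.57 FPKM without. The sign of Apc, Gsk3b and Dvl3 turned positive with the length trend removed.

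A list of 40 genes described as Wnt targets in various tissues had 22 tested, of which 3 rose and 7 fell, where 4.86% of all tested genes rose and 5.13% fell. The list holds 5 of the Wnt genes above, of which Lef1 was tested, and 7 of the further pathway genes. Fewer fell without flavonoids replicate 1 (3), flavonoids replicate 2 (3), flavonoids replicate 3 (4) or untreated replicate 2 (2). Fewer rose without flavonoids replicate 1 or untreated replicate 2 (1 each), or without flavonoids replicate 2 or 3 (2 each). The changes ran both ways. Myc, a growth regulator, had 85.1, 81.1 and 76.7 FPKM with flavonoids, against 33.9, 32.0 and 31.9 FPKM in untreated samples (1.29, SE 0.10, adjusted p = 0.00155 by limma). Ccnd1, the cell cycle gene cyclin D1, had 36.4, 36.5 and 40.2 FPKM with flavonoids, against 55.8, 65.6 and 62.3 FPKM in untreated samples (−0.68, SE 0.11, adjusted p = 0.00995). These textbook targets thus moved in opposite directions, without overlap.

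Fst, which encodes the activin-binding protein follistatin, had 48.4, 52.8 and 41.3 FPKM with flavonoids, against 99.9, 106 and 115 FPKM in untreated samples (−1.16, SE 0.13, adjusted p = 0.00290 by limma). Bmp4, a growth factor of the BMP family, had 12.2, 10.1 and 10.5 FPKM with flavonoids, against 18.9, 21.8 and 21.1 FPKM in untreated samples (−0.86, SE 0.12, adjusted p = 0.00591). Twist1, a transcription factor of mesenchymal cells, had 27.2, 29.8 and 28.3 FPKM with flavonoids, against 50.1, 49.8 and 36.7 FPKM in untreated samples (−0.65, SE 0.14, adjusted p = 0.0250). Jun, a subunit of AP-1, also fell (−0.91, SE 0.12, adjusted p = 0.00431). Of those that rose, Gja1, the gap junction gene connexin 43, had 4.16, 3.74 and 3.51 FPKM with flavonoids, against 1.62, 2.04 and 1.90 FPKM in untreated samples (0.75, SE 0.14, adjusted p = 0.0134). Plaur, the urokinase receptor, had 7.85, 5.59 and 6.93 FPKM with flavonoids, against 3.69, 3.23 and 4.23 FPKM in untreated samples (0.72, SE 0.16, adjusted p = 0.0244). Myc, Fst and Jun passed the threshold with any 1 sample left out. Bmp4 (adjusted p up to 0.0546 by limma), Ccnd1 (0.080), Gja1 (0.0792), Plaur (0.135) and Twist1 (0.138) lost it without untreated replicate 2, and all of these but Bmp4 also without flavonoids replicate 1.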

How the data were processed

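The authors deposited 1 table of FPKM values for 6 samples. The tools named are FastQC and HISAT2, with build mm10, per the submitters' processing notes. Per the labels' protocols, RNA was extracted with TRIzol and libraries were made with a TruSeq kit. How fragments were counted, with which annotation and whether by strand, is not given in the sources used here, so reads of overlapping genes or paralogs may be split with error. The values step by what 1 fragment is worth. From these steps, fragments were solved for 19567 of 22235 genes above 0, within 0.005 of a whole number, and 2665 others were above 0 in 1 sample and have no step to solve. The smallest whole numbers in the ratio of the values were taken, so a gene whose fragments share a divisor is solved too small. The fragment numbers cover counting error only. limma 3.58.1 in R 4.3.3 was fitted on log2(FPKM + 1), with an intensity trend and no covariate, to 11464 genes averaging at least 1 FPKM, two-sided, with Benjamini-Hochberg adjustment over all of them. The script was tested on simulated data that held no length trend, so that test does not cover the length differences among these samples. With 3 samples a group, exact permutation cannot go below p = 0.1 and was not used. Positions come from GENCODE M21 on GRCm38. The Wnt genes and both further gene lists were chosen with earlier results of these data known. Every tested Wnt gene is named, together with up to 8 called genes of each further list by smallest p and Apc, Gsk3b, Dvl1, Dvl2, Dvl3, Lgr4, Myc and Ccnd1. There were 17 other settings: pseudocounts of 0.1 and 5, no filter, a minimum of 5 FPKM, TPM and median-ratio scaling, no intensity trend, voom on recovered fragments, removal of the length trend, the replicate number as a block with and without that removal, and leaving out each sample.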

Additional observations from a re-analysis of the deposited data

How the results depend on the processing

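The 4 Wnt genes that fell were 2 at a minimum of 5 FPKM, which leaves Wnt6 and Wnt4 untested, 6 with the length trend removed, 5 with that removal and the block, 3 with TPM scaling, voom or the block, and 2 to 7 with 1 sample left out. The fewest came without flavonoids replicate 1 or untreated replicate 2 and the most without untreated replicate 1, and the cause was not tested. The 1 that rose became 2 with the length trend removed, 0 with the replicate block and 0 to 1 with 1 sample left out. Over all genes, 557 rose and 588 fell. With the length trend removed these were 1286 and 1208, with that removal and the replicate block 1055 and 994, with no filter 317 and 324, with the replicate block 220 and 237, and with 1 sample left out 65 to 876 and 81 to 833. Further pathway genes that fell numbered 3, against 1 under TPM scaling, 5 with the length trend removed, 2 with median-ratio scaling, 2 with no filter, 0 with the block and 0 to 6 with 1 sample left out. Targets that rose numbered 3, against 2 under TPM scaling, 2 at a minimum of 5 FPKM, 1 with no filter, 1 with the block and 1 to 3 with 1 sample left out, and those that fell 7, against 8 with the length trend removed, 6 with median-ratio scaling or voom, 5 with no filter or the block and 2 to 7 with 1 sample left out. Same-numbered samples of the groups deviated with correlations of −0.14, −0.12 and −0.20. These deviations also carry the length trend of the untreated samples, so they cannot decide whether the numbers pair samples. The labels do not say so either. Under the block Porcn (adjusted p = 0.0564 by limma) and Rspo1 (0.0744) missed the threshold. With the length trend removed and the block, Tcf7l1 passed (−0.42, adjusted p = 0.0185 by limma). Signs turned for small differences. Fzd4 was 0.01 with the length trend removed, with or without the block, 0.02 with median-ratio scaling, 0.03 with voom and −0.21 to 0.23 with 1 sample left out. Dkk3 was −0.01 under TPM scaling and −0.05 to 0.18 with 1 sample left out. With the length trend removed, with or without the block, Apc was 0.09, Gsk3b 0.13 and Dvl3 0.07. With 1 sample left out Apc was −0.37 to 0.24, Gsk3b −0.22 to 0.19, Dvl3 −0.17 to 0.18, Dvl1 −0.03 to 0.07 and Dvl2 −0.08 to 0.13. Gsk3b was 0.02 with median-ratio scaling and 0.03 with voom, Dvl3 0.04 and 0.05 under these, and Dvl1 −0.05 under TPM scaling. Depth limits Wnt11, Sfrp1, Axin2 and Wnt7b, with at most 15 fragments per sample.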

Other observations

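Feedback genes of the pathway were read at very low levels, and the following were picked out after their values were seen. Notum, a secreted enzyme that removes the lipid from Wnt proteins, had 1, 1 and 0 fragments with flavonoids and 10, 8 and 12 in untreated samples. Its mean was 0.00973 FPKM with flavonoids and 0.159 FPKM without, and in the fit with no filter it was lower with flavonoids (−0.20, SE 0.02, adjusted p = 0.0218 by limma), where 1.46% of genes were. Nkd1, which inhibits Dishevelled, had 28, 39 and 40 fragments with flavonoids and 48, 57 and 56 in untreated samples, with no overlap in FPKM either, and missed the threshold there (−0.21, SE 0.05, adjusted p = 0.108 by limma). The Wnt receptor ligase Znrf3 overlapped between the groups, with a highest sample of 0.940 FPKM, and Lgr5, Rnf43 and Sp5 were listed at 0 in all 6 samples.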
